A study of Mus musculus with 6 samples.

Results

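Gluconeogenesis enzymes and their coactivators are described here as 7 genes in the livers of insulin-resistant (IR) mice: G6pc, Pck1, Fbp1, Pcx, Slc37a4, Ppargc1a and Klf15. The members were chosen by gene name, and all 7 of 7 were found once among the 54532 genes of the count table and were among the 13377 genes kept for testing by a filter on low counts. Slc37a4 encodes a transporter and Klf15 a transcription factor, so the name of the set covers more than enzymes and coactivators.

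RNA of whole liver was sequenced from 6 male C57BL/6J mice, which all received a high-fat diet (HFD) for 6 weeks from the age of 8 weeks and were fasted for 16 h. Insulin at 0.75 units per kg body weight was injected into the peritoneum of 3 mice (IR insulin), and the carrier bovine serum albumin, BSA, was injected into the other 3 (IR vehicle), with a stimulation time of 6 h. No genetic alteration was carried by either group, and HFD and fasting were shared by both, so neither a chow-fed nor a fed mouse stands as a reference for the values below. In bulk liver RNA, fewer cells of a type and less RNA per cell cannot be told apart.

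Gluconeogenesis makes glucose from lactate, amino acids and glycerol, and with glycogen breakdown it is the liver's source of blood glucose during a fast. Pyruvate carboxylase (Pcx) and phosphoenolpyruvate carboxykinase (Pck1) carry pyruvate past the irreversible last step of glycolysis, fructose-1,6-bisphosphatase (Fbp1) reverses the phosphofructokinase step, and the glucose-6-phosphate transporter (Slc37a4) and the catalytic subunit of glucose-6-phosphatase (G6pc) release free glucose in the endoplasmic reticulum. Glucagon acts through cAMP and CREB, and glucocorticoids through their receptor, to raise transcription of Pck1 and G6pc. PGC-1α (Ppargc1a) is a coactivator induced by fasting, and KLF15 (Klf15) is a transcription factor of amino acid catabolism and gluconeogenesis. Insulin is known to repress Pck1 and G6pc, in large part by excluding FOXO1 from the nucleus, and this hepatic response is blunted in insulin resistance.

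The DNA just before the start sites of G6pc, Pck1, Ppargc1a and Klf15 is shown because these 4 members had the largest changes on the log2 scale and stood highest in the same library. Each run holds the 250 bases before a RefSeq start site on GRCm38, written 5′ to 3′ on the strand of the gene. The G6pc run is chr11:101367466-101367715 on the plus strand, that of Pck1 chr2:173152823-173153072 on the plus strand, that of Ppargc1a chr5:51567726-51567975 on the minus strand and that of Klf15 chr6:90462326-90462575 on the plus strand. Capitals mark a TATA box (TATAAA), the core of an insulin response sequence (TGTTTTG) or the core of the cAMP response element (TGACG, called its core site, which reads CGTCA on the other strand).
G6pc: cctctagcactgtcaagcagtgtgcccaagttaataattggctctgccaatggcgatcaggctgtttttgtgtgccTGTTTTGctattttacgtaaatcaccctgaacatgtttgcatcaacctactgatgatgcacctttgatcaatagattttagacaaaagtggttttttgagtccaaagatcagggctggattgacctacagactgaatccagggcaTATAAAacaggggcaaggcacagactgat
Pck1: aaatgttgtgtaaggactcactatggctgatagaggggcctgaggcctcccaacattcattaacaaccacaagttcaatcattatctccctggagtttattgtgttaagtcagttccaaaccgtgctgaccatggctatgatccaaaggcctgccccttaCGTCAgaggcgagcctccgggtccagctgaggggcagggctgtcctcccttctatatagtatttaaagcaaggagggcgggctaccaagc
Ppargc1a: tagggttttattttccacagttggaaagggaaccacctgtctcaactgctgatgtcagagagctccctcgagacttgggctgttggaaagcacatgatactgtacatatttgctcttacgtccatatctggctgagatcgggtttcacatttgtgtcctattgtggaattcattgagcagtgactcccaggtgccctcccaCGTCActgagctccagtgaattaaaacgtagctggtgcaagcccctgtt
Klf15: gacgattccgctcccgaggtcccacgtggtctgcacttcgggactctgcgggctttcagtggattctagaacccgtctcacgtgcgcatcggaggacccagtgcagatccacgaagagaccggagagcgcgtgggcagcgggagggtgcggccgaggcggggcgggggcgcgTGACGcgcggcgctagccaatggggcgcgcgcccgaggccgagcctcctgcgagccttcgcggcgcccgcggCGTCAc

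G6pc holds TGTTTTG beginning 174 bases before its start site and TATAAA beginning 29 bases before it, and no cAMP core site. Pck1 holds a single core site beginning at -90, Ppargc1a one at -49, and Klf15 a pair at -78 and -6, and none of these 3 holds TGTTTTG or TATAAA. All RefSeq windows from 250 bases before to 50 after a start site were searched on both strands, with the core site also contained in the full element TGACGTCA. Of 32851 windows, 20.8% held the core site, 6.28% TGTTTTG, 13.6% TATAAA, 1.79% the full element and 3.65% the forkhead motif TGTTTAC. Neither of the last 2 motifs was found in any member's window, and the windows of Fbp1 and Pcx held no match to any of the 5 motifs. Slc37a4, with 3 windows, held core sites in 2 of them, which overlap and share a site, and TATAAA in the other. A match is a string of letters in these windows and is no evidence of binding. A missing match does not show that a gene lacks the element, since variant letters and DNA further upstream were not searched.

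Values are counts scaled by TMM to a library of common size (CPM), which reduces differences in library size and composition. Totals ran from 18449986 to 21827619 counts, and the most thinly counted member was Ppargc1a, with 65 to 198 counts per library. Labels give no batch or date. A pair of vehicle libraries stood apart. In IR vehicle replicate 2, a gene's deviation from the other libraries fell steeply with its GC content, by 1.13 on the log2 scale per 10 percentage points, against slopes of -0.0637 to 0.19 in the other 5. IR vehicle replicate 3 had the highest value of the 6 libraries for 23.4% of the genes tested and the lowest for 23.8%, and vehicle replicate 2 the highest for 35.8% and the lowest for 37.4%. Over all genes tested, the median coefficient of variation was 36.2% among vehicle libraries and 12.8% among insulin libraries.

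G6pc and Pck1 had lower means with insulin, at 0.453 and 0.524 of the vehicle mean. Whether either gene passed the study's criteria depended on the fit. Neither passed them in the main edgeR fit, on all 6 libraries with low counts filtered and no block. Nor did either pass in edgeR with RLE or upper-quartile size factors or an offset for GC content (unadjusted p of 0.0552 to 0.142). With the replicate number as a block both passed, G6pc at -0.96 (unadjusted p of 0.0193) and Pck1 at -0.89 (unadjusted p of 0.0446). The labels give no link between same-numbered libraries, whose deviations correlated at only -0.039, 0.069 and 0.017. For both genes replicate 3 was the highest library of each group, so such a block takes up part of their spread. The block fit called 321 of 13377 genes, higher and lower together. In both genes the change was much smaller without the highest vehicle library. No member passed at an adjusted p under 0.05 in the quasi-likelihood F test of edgeR, where the share of all genes called was 0%. In the main fit no member met the criteria used in the study. These are a log2 fold change of 0.35 or more in size and an unadjusted p below 0.05. Of all genes, 1% met them with higher and 1.86% with lower values under insulin. At an unadjusted p under 0.05 alone, the count over all genes was 383 in the main fit and 0 for the members. DESeq2, the tool the study applied these criteria with, and limma voom also called 0 genes at an adjusted p under 0.05. By the study's criteria DESeq2 as run here called 548 of 23040 genes, more than the study itself reported, and voom called 213 of 13377. Each called 1 member, G6pc. Its log2 fold change was -1.15 by DESeq2 with an unadjusted p of 0.0246, where 1.62% of all genes were called as lower, and -0.99 by voom with an unadjusted p of 0.0317, where 0.785% were. With no filter on low counts, edgeR called G6pc (-1.11, unadjusted p of 0.0167) and Klf15 (-1.01, unadjusted p of 0.0394), where 1.94% of all genes were called as lower. Of the 7 members, 6 had a negative log2 fold change, with a median of -0.67, against a median of -0.02 and 51.4% negative over all genes tested. Only Pcx had groups whose values did not overlap, with insulin higher, as 6.25% of all genes did. For lower values with insulin the share of all genes was 6.04%, and no member was among them.

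Pcx (chr19:4510472-4621752, plus strand, 21 exons) makes oxaloacetate from pyruvate inside mitochondria, the entry step of the pathway. It had 987, 527 and 877 CPM in vehicle replicates 1, 2 and 3, and 1099, 994 and 1028 CPM in insulin replicates 1, 2 and 3. The lowest insulin library lay just above the highest vehicle library, and vehicle replicate 2 lay far below the other 5. The means were 797 ± 240 CPM for vehicle and 1040 ± 53.6 CPM for insulin (SD, n = 3 each), a log2 fold change of 0.38 (SE 0.295, 95% interval -0.30 to 1.07, edgeR adjusted p = 0.852). Pcx is the member with the highest GC content, 57.7% in its longest transcript. With an offset for GC content in each library the log2 fold change was -0.05, and without vehicle replicate 2 it was 0.16. Pcx overlaps Lrfn4 on the opposite strand, and since the use of strand in counting is not given in the sources used here, reads of Lrfn4 may be included.

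Pck1 (chr2:173153048-173159273, plus strand, 9 exons) turns oxaloacetate into phosphoenolpyruvate, and its transcript is the classic target of insulin repression in liver. Its levels were 1039, 1666 and 3543 CPM in vehicle replicates 1 to 3, and 841, 647 and 1786 CPM in insulin replicates 1 to 3. Insulin replicates 1 and 2 lay below every vehicle library, whereas insulin replicate 3 lay above vehicle replicates 1 and 2. The mean was 2083 ± 1303 CPM for vehicle and 1092 ± 610 CPM for insulin (SD, n = 3 each), with a log2 fold change of -0.93 (SE 0.544, 95% interval -2.19 to 0.32, edgeR adjusted p = 0.852). Leaving out vehicle replicate 3 gave -0.31, and without insulin replicate 3 it was -1.47 with an unadjusted p of 0.0376, past the study's criteria, as 0.496% of all genes were with lower values.

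Fbp1 (chr13:62864753-62888282, minus strand, 7 exons) gave 828, 943 and 1284 CPM in vehicle replicates 1 to 3, and 974, 882 and 800 CPM in insulin replicates 1 to 3. The groups overlapped, with vehicle replicate 3 above and the other 5 libraries within a narrow band. A mean of 1018 ± 237 CPM for vehicle stood against 885 ± 87.4 CPM for insulin (SD, n = 3 each). The log2 fold change was -0.20 (SE 0.267, 95% interval -0.82 to 0.41, edgeR adjusted p = 0.865). It was -0.00082 without vehicle replicate 3. The mean of vehicle replicates 1 and 2 was 886 CPM, next to the insulin mean.

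G6pc (chr11:101367561-101377903, plus strand, 5 exons), whose product hydrolyses glucose 6-phosphate to glucose, was measured at 122, 104 and 365 CPM in vehicle replicates 1 to 3. It was measured at 61.9, 80.7 and 126 CPM in insulin replicates 1 to 3. Insulin replicates 1 and 2 were below every vehicle library, insulin replicate 3 was just above vehicle replicates 1 and 2, and vehicle replicate 3 was 2.90 times the next highest library. The means of 197 ± 146 CPM for vehicle and 89.5 ± 32.9 CPM for insulin (SD, n = 3 each) gave a log2 fold change of -1.14 (SE 0.515, 95% interval -2.33 to 0.048, edgeR adjusted p = 0.852), and the unadjusted p of 0.0579 was the smallest among members. Without vehicle replicate 3 the log2 fold change was -0.34. Leaving out vehicle replicate 2, vehicle replicate 1 or insulin replicate 3 instead gave -1.44, -1.39 and -1.46, each past the study's criteria, as 2.06%, 5.33% and 0.496% of all genes then were with lower values.

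Slc37a4 (chr9:44396852-44402968, plus strand, 9 exons) moves glucose 6-phosphate to the side of the membrane where G6pc acts. The vehicle libraries held 177, 164 and 292 CPM, and the insulin libraries 200, 195 and 124 CPM, each in the order of replicates 1 to 3. Insulin replicates 1 and 2 lay between the vehicle libraries and insulin replicate 3 below them all, the reverse of its place in G6pc. A mean of 211 ± 70.4 CPM for vehicle and of 173 ± 42.7 CPM for insulin (SD, n = 3 each) came with a log2 fold change of -0.28 (SE 0.315, 95% interval -1.01 to 0.44, edgeR adjusted p = 0.855). The value was 0.02 without vehicle replicate 3, so its sign rested on that library. With the GC offset it was -0.61.

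Ppargc1a (chr5:51454250-51567726, minus strand, 13 exons) had the lowest level of the members, with 3.44, 5.03 and 9.44 CPM in vehicle replicates 1 to 3 and 4.77, 2.81 and 3.69 CPM in insulin replicates 1 to 3. Vehicle replicates 2 and 3 lay above every insulin library, and vehicle replicate 1 lay within the insulin range. The mean was 5.97 ± 3.11 CPM for vehicle and 3.76 ± 0.981 CPM for insulin (SD, n = 3 each), a log2 fold change of -0.67 (SE 0.427, 95% interval -1.65 to 0.32, edgeR adjusted p = 0.852). It was -0.17 without vehicle replicate 3. Its counts are the least certain of the set, since 4 unconfirmed gene models overlap it, 3 on its own strand.

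Klf15 (chr6:90462576-90475238, plus strand, 4 exons) had 58.1, 48.3 and 234 CPM in vehicle replicates 1 to 3, and 45.9, 53.1 and 66.0 CPM in insulin replicates 1 to 3. Vehicle replicate 3 was 3.54 times the next highest library, and the other 5 libraries lay within 45.9 to 66.0 CPM with the groups mixed. The means were 113 ± 104 CPM for vehicle and 55.0 ± 10.1 CPM for insulin (SD, n = 3 each), with a log2 fold change of -1.04 (SE 0.579, 95% interval -2.38 to 0.29, edgeR adjusted p = 0.852). Without vehicle replicate 3 the log2 fold change was 0.05, and the mean of vehicle replicates 1 and 2 was 0.966 times the insulin mean. Without vehicle replicate 2 it was -1.40 with an unadjusted p of 0.0264, and with the GC offset -1.22 with an unadjusted p of 0.0307, both past the study's criteria. With that offset 2.83% of all genes were past them as lower, 379 of 472 called, against 249 of 383 without it.

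**Figure D1:**
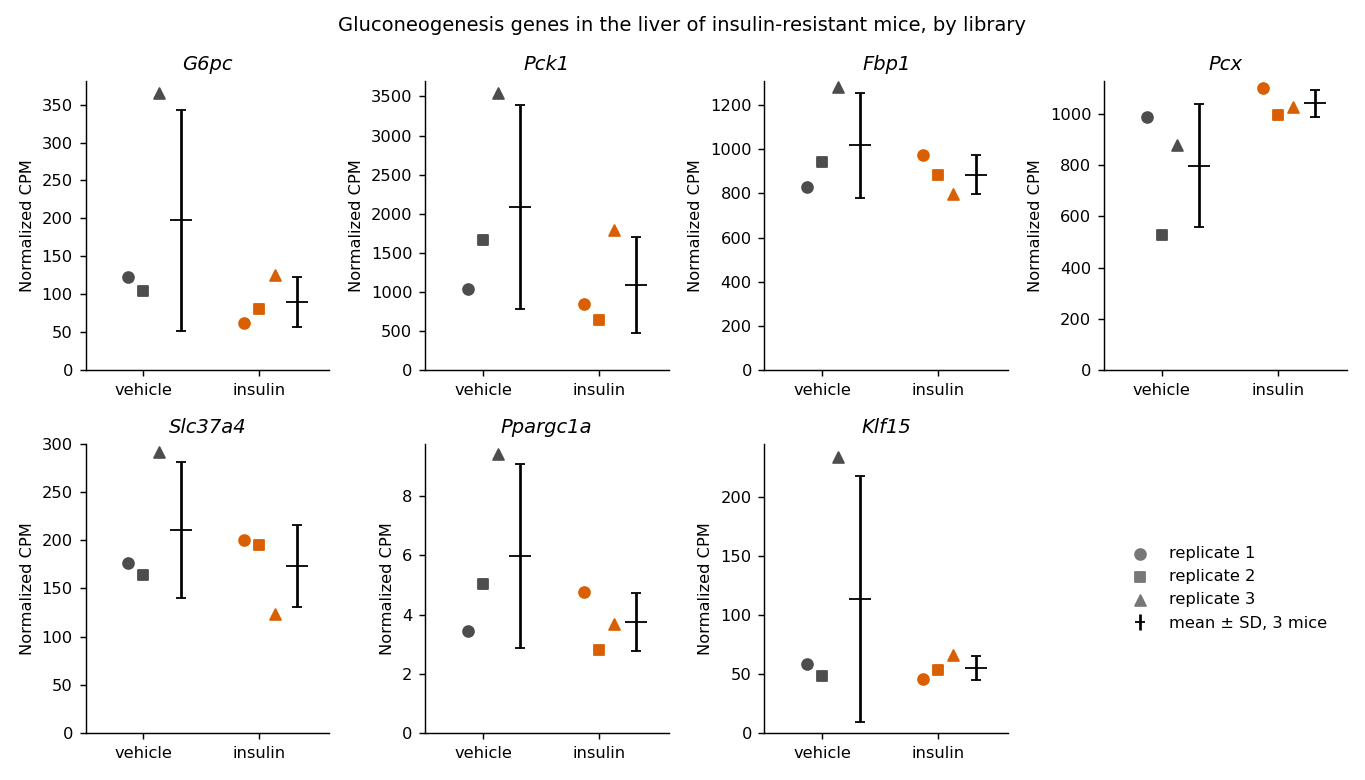
CPM of each of the 7 members in the 6 libraries, with replicates as points (vehicle grey, insulin orange) and the mean ± SD of each group beside them. Vehicle replicate 3 is the highest library in 6 panels, and in the Pcx panel the insulin libraries lie at 994 to 1099 CPM, above the vehicle libraries.

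**Figure D2:**
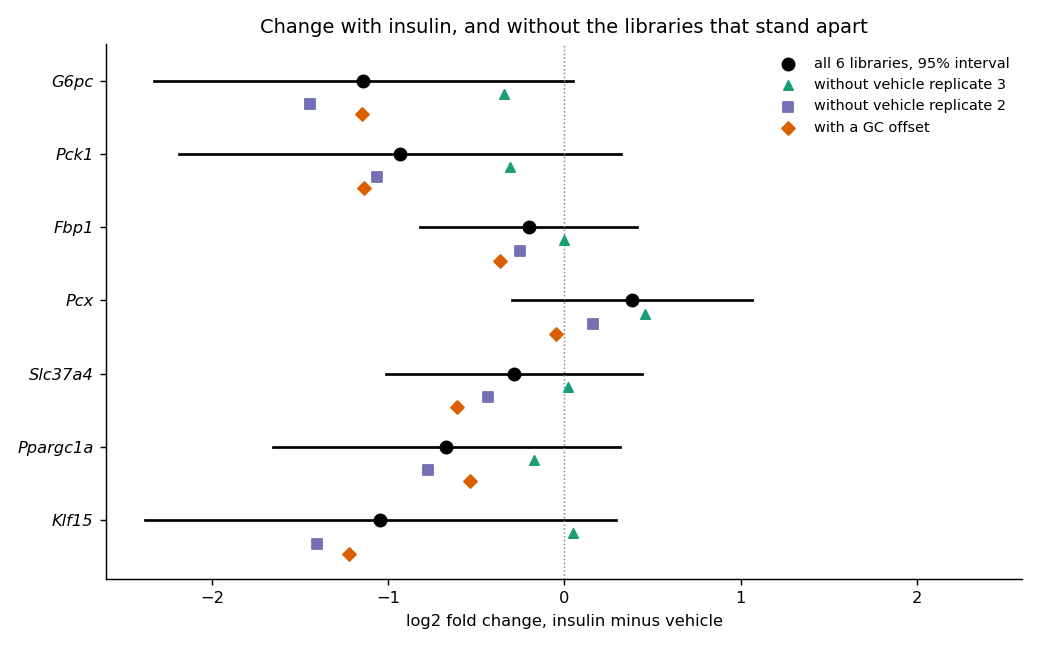
Log2 fold change of insulin over vehicle for each member, with the 95% interval of the edgeR fit on 6 libraries, and the values with vehicle replicate 3 or 2 left out or a GC offset added. Every interval holds 0, and the values without vehicle replicate 3 run from -0.34 to 0.46.

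Each member varied more among vehicle than among insulin libraries, as the median gene did. Among vehicle libraries the coefficient of variation ran from 23.3% for Fbp1 to 92.1% for Klf15, against a median of 36.2% over all genes tested. Fbp1, Pcx and Slc37a4 lay below that median. Among insulin libraries it ran from 5.16% for Pcx to 55.8% for Pck1, against a median of 12.8%. Vehicle replicate 3 was the highest library for 6 of 7 members, Pcx being the exception, against 23.4% of all genes tested. Its deviation from the remaining libraries' median was 2.14 on the log2 scale for Klf15, 1.81 for G6pc and 1.77 for Pck1. Only 0.404%, 0.792% and 0.852% of all genes deviated upward by at least as much as these 3 members. The deviation was 1.33 for Ppargc1a, 0.72 for Slc37a4, 0.54 for Fbp1 and -0.18 for Pcx. Klf15 stood at 4.40 times the mean of vehicle replicates 1 and 2, G6pc at 3.22 times and Pck1 at 2.62 times, while Fbp1 stood at 1.45 times. Without that library, the log2 fold changes of 2 members, Slc37a4 and Klf15, changed sign, and those of G6pc, Pck1 and Ppargc1a stayed negative at -0.34, -0.31 and -0.17.

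**Figure D3:**
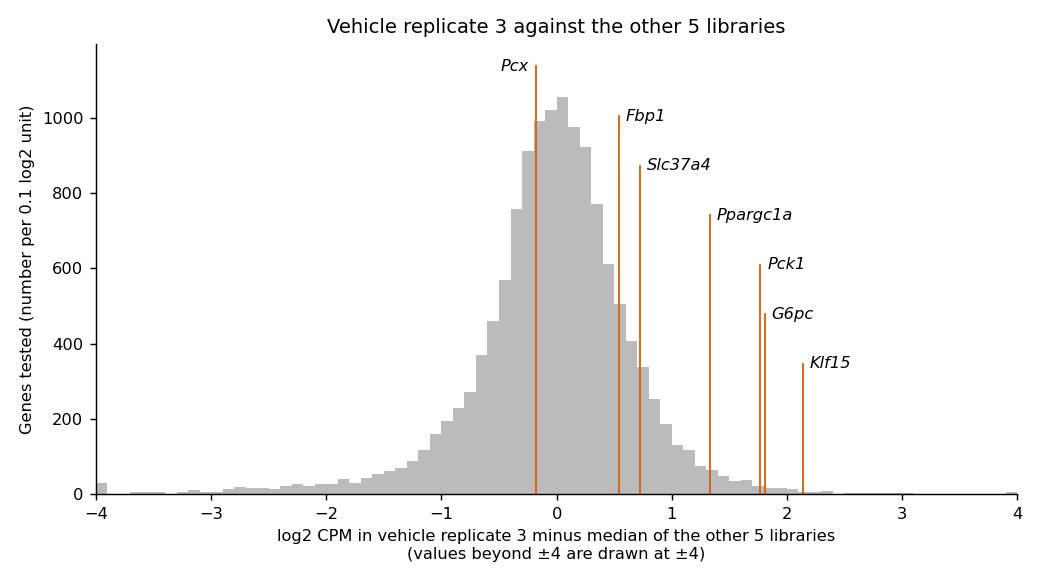
Histogram over the 13377 genes tested of log2 CPM in vehicle replicate 3 minus the median in the remaining libraries, with the 7 members as labelled lines whose heights carry no value. Klf15, G6pc and Pck1 lie in the far right tail at 1.77 to 2.14, and Pcx lies near the centre at -0.18.

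Genes known to mark periportal hepatocytes, the zone of the lobule where gluconeogenesis is highest, were also highest in vehicle replicate 3. The 8 periportal markers were each highest in that library, and their summed level was 15935 CPM there, against 6849 and 7544 CPM with the other vehicle mice and 5788 to 7347 CPM with insulin. Hal, which breaks down histidine, was at 785 CPM against 86.3 to 141 CPM elsewhere, and Ass1, an enzyme of the urea cycle, at 3970 CPM against 713 to 1254 CPM. The 8 pericentral markers summed to 12765 CPM in vehicle replicate 3, within the range of 10294 to 18643 CPM over all libraries, with the highest sum in vehicle replicate 2. Most of each sum was Cyp2e1, at 10407 CPM in vehicle replicate 3, and the single markers went different ways. Cyp1a2 was highest in vehicle replicate 3, at 424 CPM against 157 to 184 CPM elsewhere. Glul, Oat and Slc1a2 were lowest there, and Cyp2e1, Rhbg, Lgr5 and Axin2 lay within the range of the other libraries. The part of the periportal genes in the members' values was not tested, nor was whether vehicle replicate 3 held more periportal tissue. One periportal marker, Sds, is also in the list of substrate enzymes below.

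The tissue label was borne out by 5 hepatocyte markers, whose summed level was 56450 to 154945 CPM. The other marker sums were 223 to 483 CPM for Kupffer cells, 119 to 223 CPM for stellate cells and 19.8 to 50.8 CPM for bile duct, and endothelial markers stood at 217 CPM in vehicle replicate 3 against 125 to 138 CPM elsewhere. Erythroid markers ran from 413 to 1587 CPM with vehicle and from 312 to 478 CPM with insulin. Of these markers, 4 of 5 were past the study's criteria as lower, as 1.86% of all genes were. The highest sum was in vehicle replicate 2, the library with the steep GC slope. There Hba-a2 was at 353 CPM, against 6.58 to 22.7 CPM elsewhere. Neutrophil markers summed to 4.53 CPM in vehicle replicate 3 and to 30.2 to 75.4 CPM in the other 5 libraries. Adipocyte markers summed to 0.191 CPM in vehicle replicate 3 against 25.0 to 154 CPM elsewhere, and nearly all of each sum was Cfd alone, since Adipoq, Plin1 and Retn were at 0 to 0.0866 CPM and Lep at 0 in every library. B cell markers reached at most 10.9 CPM, T cell 1.69 CPM, kidney tubule 7.80 CPM, pancreas 0.811 CPM and muscle 0.0954 CPM. The part of these cell types in the members' values was not tested.

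Levels were compared between members only per kilobase of the longest transcript. Fbp1 had the highest mean over the 6 libraries at 644 CPM per kb, followed by Pck1 at 582, Pcx at 221, Slc37a4 at 81.9, G6pc at 59.4, Klf15 at 33.9 and Ppargc1a at 0.753 CPM per kb. By group, Pck1 was first with vehicle at 763 ± 478 against 689 ± 160 CPM per kb for Fbp1, and Fbp1 first with insulin at 599 ± 59.1 against 400.1 ± 223 CPM per kb (SD, n = 3 each). Neighbours overlapped in their ranges over libraries, except that Pcx (127 to 265 CPM per kb) lay above Slc37a4 (52.8 to 124 CPM per kb) and Klf15 (18.5 to 94.2 CPM per kb) lay above Ppargc1a (0.435 to 1.46 CPM per kb). Pck1 was above Fbp1 in the third vehicle library, at 1299 against 868 CPM per kb, and in the third insulin library, at 655 against 541 CPM per kb, and below it in the other 4.

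**Figure D4:**
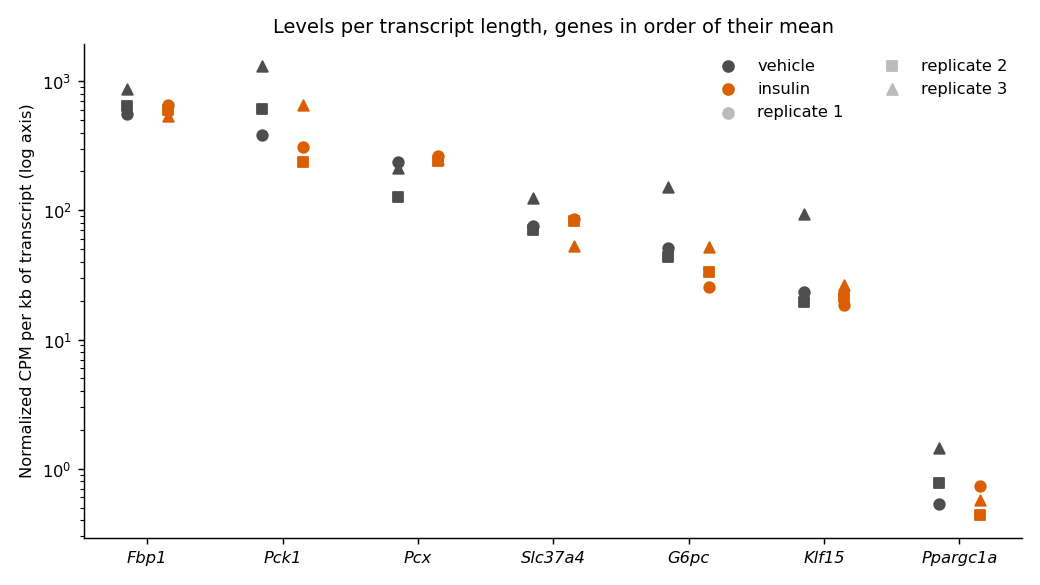
Level of each member in CPM per kilobase of its longest transcript on a log axis, in the 6 libraries. The order of the means over all 6 libraries runs from Fbp1 at 644 to Ppargc1a at 0.753 CPM per kb, and neighbours overlap except at Pcx against Slc37a4 and Klf15 against Ppargc1a.

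Ratios of counts within a library do not depend on how libraries are scaled, although they do depend on transcript length and on GC content. GC content was 47.7% for G6pc against 55.5% for Slc37a4, and 53.0% for Pck1 against 57.7% for Pcx. In vehicle replicate 2, values fell with GC content by 1.13 on the log2 scale per 10 percentage points. The ratios were not corrected for this, so those of G6pc to Slc37a4 and Pck1 to Pcx may be too high there. Of G6pc to Slc37a4, the paired phosphatase and transporter, the ratio was 0.692, 0.637 and 1.25 in vehicle replicates 1 to 3 and 0.309, 0.413 and 1.02 in insulin replicates 1 to 3. Insulin replicates 1 and 2 were below every vehicle library and insulin replicate 3 was not. The ratio of Pck1 to Pcx, the enzymes on either side of oxaloacetate, was 1.05, 3.16 and 4.04 in vehicle and 0.766, 0.651 and 1.74 in insulin libraries. The groups overlapped in both ratios and in that of Pck1 to Fbp1.

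Among pairs of members, the profiles over the 6 libraries were closest for Fbp1 and Slc37a4, with a root mean square difference of centred log2 CPM of 0.200, followed by G6pc and Klf15 at 0.255 and G6pc and Pck1 at 0.385. Pck1 and Pcx were furthest apart at 0.991. Outside the members, the 5 of 10885 other genes with profiles most like that of G6pc were Cryl1, Gas2, Noct, Wnt2 and Gm4956, at 0.152 to 0.324. For Pck1 they were Gstp-ps, Noct, Serpina1e, Ldlrad4 and Ank3, at 0.197 to 0.303. Noct, a circadian phosphatase of NADPH, is on both lists, with 15.9, 17.9 and 47.6 CPM in vehicle and 8.82, 9.31 and 26.6 CPM in insulin libraries. Counts of Gstp-ps and Serpina1e are uncertain, since each has near-identical copies in the genome. These likenesses are descriptions over 6 libraries that share vehicle replicate 3.

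The substrate and shared enzymes, which bring lactate, amino acids and glycerol into the pathway or serve both directions of glycolysis, had 24 of 25 genes tested. Of these, 2 passed the study's criteria with lower values under insulin and 0 with higher values. Over all genes, 1.86% passed with lower and 1% with higher values. Slc2a2, the GLUT2 glucose transporter, was at 119, 229 and 192 CPM in vehicle and 94.9, 125 and 96.2 CPM in insulin libraries, a log2 fold change of -0.77 with an unadjusted p of 0.0297 and some overlap. Mpc1, a subunit of the mitochondrial pyruvate carrier, was at 44.2, 65.9 and 44.5 CPM in vehicle and 35.9, 38.1 and 29.3 CPM in insulin libraries, with no overlap and a log2 fold change of -0.58 (unadjusted p of 0.0475). Mpc2, its partner, had -0.95 and Mdh1, cytosolic malate dehydrogenase, had -0.59, with unadjusted p values of 0.0513 and 0.0540. The value of Mpc2 was -0.35 without vehicle replicate 2 and -0.22 by voom. Of 13 alternatives, 9 ended the call of Mpc1 and 6 that of Slc2a2. The median log2 fold change of the list was -0.16, against -0.02 for all genes, with 17 genes lower and 7 higher. The median was 0.15 without vehicle replicate 3, the highest library for 15 of the 24 genes.

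The transcriptional regulators of the pathway had 20 of 20 genes tested and 0 past the study's criteria. Over all genes, 1% were past them as higher and 1.86% as lower. The median log2 fold change of the list was 0.12, with 13 genes higher and 7 lower. That median was -0.12 with the GC offset and -0.16 without vehicle replicate 2. Foxo1, the forkhead factor that insulin restrains, had 30.2 ± 7.70 CPM in vehicle and 22.2 ± 0.410 CPM in insulin libraries (SD, n = 3 each), a log2 fold change of -0.45 with an unadjusted p of 0.114. Nr0b2, a corepressor, had -1.43 with 33.9 CPM in vehicle replicate 3 against 2.25 to 7.40 CPM elsewhere, and its value without that library was 0.16. Sirt1, a deacetylase that acts on PGC-1α, had -0.57, and -0.19 without vehicle replicate 2. Cebpa, a hepatocyte transcription factor, had 0.71, which was 0.34 without that library and 0.17 with the GC offset.

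Of 12 other genes known to be repressed by insulin or raised by fasting, 1 passed the study's criteria. It was higher with insulin, as 1% of all genes were. This was Fgf21, a fasting hormone of the liver, with 6.66, 2.70 and 5.87 CPM in vehicle and 9.91, 8.49 and 13.1 CPM in insulin libraries, a log2 fold change of 1.04 with an unadjusted p of 0.0247. Its call was lost by voom (0.66, unadjusted p of 0.0548) and without insulin replicate 3 (0.86, unadjusted p of 0.0953). Igfbp1, whose transcript insulin represses, had 36.5, 3.99 and 266 CPM in vehicle and 14, 11.6 and 60.2 CPM in insulin libraries, a log2 fold change of -1.84 with an unadjusted p of 0.182. Like G6pc and Pck1, it was highest in vehicle replicate 3, and its value without that library was 0.49. Sik1, a kinase that restrains CREB signalling, had -0.32, and 0.02 without vehicle replicate 3. Pdk4, which inhibits pyruvate dehydrogenase, had -0.67, and 0.61 without vehicle replicate 1. The list had 6 genes higher and 6 lower, with a median of -0.03, which was 0.19 without vehicle replicate 3.

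Genes that insulin is known to induce had 12 of 13 tested, with 1 past the study's criteria as higher and 0 as lower. Over all genes, 1% were past them as higher and 1.86% as lower. Fasn, fatty acid synthase, had 78.1, 39.6 and 70.2 CPM in vehicle and 102, 113 and 99.3 CPM in insulin libraries, with no overlap and a log2 fold change of 0.74 (unadjusted p of 0.0327). Its value with the GC offset was 0.32 with an unadjusted p of 0.131. Acacb, an acetyl-CoA carboxylase, had 0.77, Pklr, liver pyruvate kinase, had 0.60 and Elovl6, a fatty acid elongase, had -0.40, with unadjusted p values of 0.0611, 0.0712 and 0.114. Acacb passed the study's criteria under 6 of 13 alternatives, and its value was 0.47 without vehicle replicate 2. The median was 0.07, with 7 genes higher and 5 lower. No gene of the 4 lists passed at an adjusted p under 0.05.

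**Figure D5:**
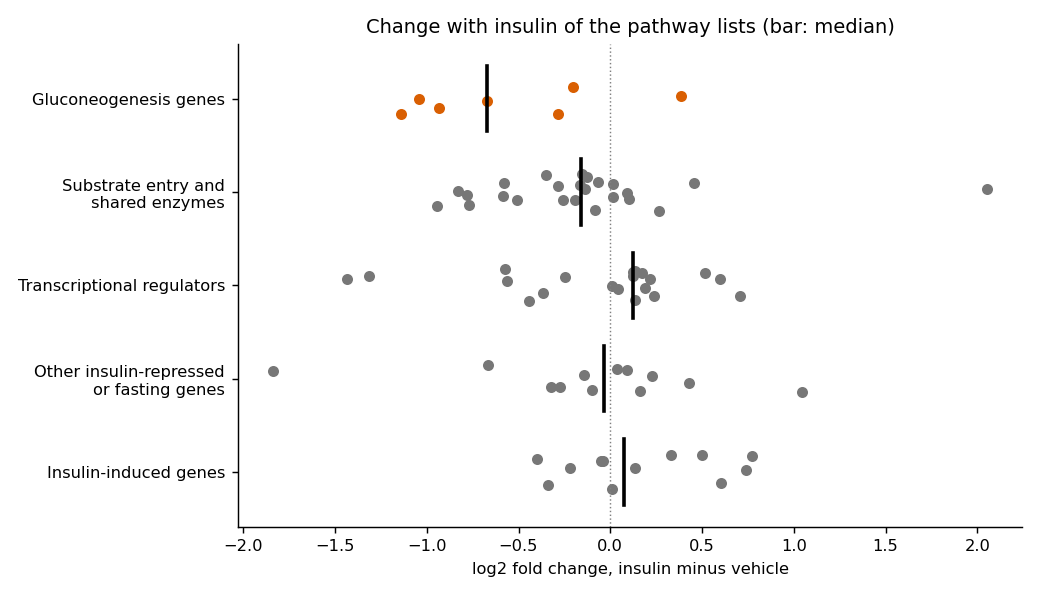
Log2 fold change of insulin over vehicle for each tested gene of the members and of the 4 lists, one point per gene, with the median of each list as a line. The medians are -0.67 for the members, -0.16 for substrate and shared enzymes, 0.12 for regulators, -0.03 for other insulin-repressed or fasting genes and 0.07 for insulin-induced genes.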

How the data were processed

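Liver RNA of 6 mice, 3 per group, was measured by RNA sequencing, and the labels gave each library's group and number. The authors deposited raw read counts per gene, neither normalized nor pooled. Their reads came from NEBNext Ultra libraries on an Illumina HiSeq and were aligned to mm10, with Bowtie2 2.2.3 per the submitters' processing notes. The counting program and its use of strand are not given in the sources used here. Of 54532 genes, 54495 matched GENCODE release M21 by identifier, from which coordinates, lengths and GC content were taken. Promoter runs are from RefSeq (GRCm38.p6).

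Counts were compared with edgeR 4.0.16 (R 4.3.3, TMM, glmQLFit and glmQLFTest, genes kept by filterByExpr at a count of 10 and a total of 15), with Benjamini-Hochberg adjustment over 13377 genes. Group values are mean ± SD of CPM, and standard errors were derived from the F statistic. An exact two-sided permutation test of 3 against 3 libraries cannot go below 0.1 and was not used. The libraries are from separate mice per the study's text, so the p-values weigh the change against the spread between libraries of different mice. That spread also holds differences between libraries such as the GC slope of vehicle replicate 2. The scripts were tested on simulated data. Alternatives were RLE and upper-quartile size factors, no filter, DESeq2 1.42.0, limma 3.58.1 voom with sample weights, a GC offset per library (loess, span 0.5, 13367 genes), the replicate number as a block, and each library left out.

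Members and gene lists were chosen with earlier results of these data known. Named are the 7 members, 4 genes of each of the 4 pathway lists by smallest p, the 5 genes closest in profile to G6pc and to Pck1 among genes whose higher group averaged 50 or more normalized counts, and markers where their list is described.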

Additional observations from a re-analysis of the deposited data

How the results depend on the processing

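No member and no gene passed at an adjusted p under 0.05 in any of the 13 alternatives run, and the members' adjusted p ran from 0.506 to 0.9997. Over the 91 combinations of member and alternative, 76 kept the direction and the side of the study's criteria, 12 moved past the criteria with the same direction and 3 changed direction; the cause was not tested. Genes past the criteria numbered 383, against 742 of 23040 with no filter on low counts (more genes tested), 548 of 23040 with DESeq2, 213 with voom, 472 with the GC offset, and 99 to 1349 when a library was left out, the lowest without insulin replicate 1 and the highest without vehicle replicate 1. Without vehicle replicate 3 it was 888, and without insulin replicates 2 and 3 it was 143 and 120. Members past them numbered 0, against 2 with no filter (G6pc -1.11, Klf15 -1.01), 1 with DESeq2 (G6pc -1.15), 1 with voom (G6pc -0.99), 1 with the GC offset (Klf15 -1.22) and 0 to 2 with a library left out. With the GC offset Pcx was -0.046.

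With a library left out, log2 fold changes ran from -1.46 to -0.34 for G6pc, -1.47 to -0.31 for Pck1, -1.40 to 0.049 for Klf15, -0.43 to 0.022 for Slc37a4, -0.94 to -0.17 for Ppargc1a, -0.33 to -0.00082 for Fbp1 and 0.16 to 0.57 for Pcx. Among other genes named, Nr0b2 ran from -1.90 to 0.16, Igfbp1 from -2.99 to 0.49 and Sik1 from -0.52 to 0.024, each positive without vehicle replicate 3, and Pdk4 from -1.05 to 0.61, positive without vehicle replicate 1. Each of the calls of Slc2a2, Mpc1, Fgf21 and Fasn was lost without insulin replicate 3 (unadjusted p of 0.102, 0.167, 0.0953 and 0.0662). Those of Slc2a2, Mpc1 and Fasn were also lost without insulin replicate 1 (0.109, 0.110 and 0.0720), those of Mpc1 and Fasn without insulin replicate 2 (0.0821 and 0.1003), those of Slc2a2 and Mpc1 without vehicle replicate 2 (0.0545 and 0.0628) and that of Slc2a2 without vehicle replicate 3 (0.0567).

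With the replicate number as a block, 321 of 13377 genes were past the criteria, higher and lower together. Among them were 2 members, G6pc at -0.96 and Pck1 at -0.89. The share of all genes with lower values was not counted for this fit. Deviations of same-numbered libraries correlated at -0.039, 0.069 and 0.017, and not every library correlated best with its own number. The labels do not say whether same-numbered libraries share more than a number, and so few libraries cannot decide it.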

Other observations

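In the list of substrate and shared enzymes, 2 further genes are given, picked once their values were known. Tat, which starts tyrosine breakdown, was at 3268 CPM in vehicle replicate 3 and at 714 to 1122 CPM in the other 5 libraries. Gapdh, a shared enzyme of glycolysis, was at 1.64, 0.246 and 53.4 CPM in vehicle and 124, 104 and 1.98 CPM in insulin libraries. Gapdh has many near-identical processed copies, so its counts are uncertain.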
